A study of Mus musculus with 2 samples.

Results

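Scavenger and efferocytosis receptors are the surface proteins with which macrophages take up modified lipoproteins, spent glycoproteins and dying cells. The 10 genes described here, out of 32285 in the files, were chosen by symbol: Mrc1, Cd163, Cd36, Msr1, Marco, Folr2, Timd4, Stab1, Mertk and Axl. Efferocytosis, the clearance of apoptotic cells, begins with recognition of phosphatidylserine on the dying cell. Timd4 and Stab1 bind it directly, Mertk and Axl through the bridging protein Gas6, and Mertk also through the bridging protein Pros1. Engulfment, digestion in the phagosome and export of the cholesterol that is left follow. In the colon, monocytes that carry Ly6C enter the lamina propria continuously, lose Ly6C and acquire complement C1q, CX3CR1 and receptors such as CD206, the product of Mrc1, as they become resident macrophages.

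The study sequenced single cells from the colon lamina propria of C57BL/6 mice, labelled cd11b+ after the myeloid integrin that Itgam encodes. It compared RUNX3fl/fl-Lyz2-Cre mice, in which Cre is driven from the lysozyme 2 locus of myeloid cells, with RUNX3fl/fl littermates; both genotypes carry the floxed Runx3 alleles, and young adult mice were pooled. There were 2 libraries, titled Runx3_fl and Runx3, each the only library of its group. The titles do not say where Cre was present, so both are named by their titles and no genotype was assigned. With 1 library per group there was no test between groups, and every interval covers counting error only. Animal, sex, sorting and library differences cannot be told apart from genotype.

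Cells with 200 to 6000 detected genes and at most 15% mitochondrial UMIs (barcodes that tell captured RNA molecules from their PCR copies) were kept. They numbered 11885 under the title Runx3_fl and 8167 under the title Runx3, the order in which pairs of values are given throughout. Their median depths were 9573 and 5731 UMIs, and 27 kept barcodes occurred in both libraries. A cell was placed in a class when it held at least 2 UMIs of the gate gene and none of the gene it had to lack, and fewer than 3 summed lymphoid UMIs. Ly6c2+ C1qa- cells, the monocyte gate, numbered 990 and 1569. C1qa+ Ly6c2+ cells, between monocytes and macrophages, numbered 202 and 316. C1qa+ Ly6c2- cells, the macrophage gate, numbered 136 and 107. There were 418 and 99 Flt3+ cells (dendritic cells) and 524 and 291 Csf3r+ cells (neutrophils). Of 12 gut macrophage markers, 8 and 12 were highest in C1qa+ Ly6c2- cells. They include C1qb and C1qc, which encode chains of C1q as the gate gene C1qa does, so this check is partly tied to the gate. All 8 neutrophil markers were highest in Csf3r+ cells of both libraries, and 10 and 9 of 10 dendritic markers in Flt3+ cells, whereas only 4 of 9 monocyte markers were highest in Ly6c2+ C1qa- cells of either library.

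Several features set the libraries apart before any receptor is read. Despite the cd11b+ label, 5431 and 1490 kept cells had 3 or more lymphoid UMIs and no C1qa, Flt3 or Csf3r. Runx3 itself was not lower in the myeloid classes of the library labelled Runx3 (142 and 216 CPM in C1qa+ Ly6c2- cells, where CPM are the UMIs of a gene scaled to a common total of all UMIs in the class). In lymphoid cells it was at 396 and 186. Counting from the 3' end need not read the deleted exons, which was not tested. Lyz2, whose locus drives Cre, was at 3101 and 1103 CPM in Ly6c2+ C1qa- cells and 3781 and 834 in C1qa+ Ly6c2+ cells. It was at 1729 and 1126.5 in C1qa+ Ly6c2- cells and 767 and 771 over all kept cells. No genotype was read from these values. Over all kept cells Xist was at 212 and 0.183 CPM, with the Y-linked Ddx3y at 127 and 197, so Y-linked transcripts were present in both libraries and Xist almost only in the former. The paper describes its pooled mice as male. The inflammatory list (Nos2, Il6, Il12b, Il1a, Tnf, Cxcl9 and Saa3) summed to 4532 and 1865 CPM in C1qa+ Ly6c2+ cells. In lymphoid cells, which should lack these receptors, Mrc1 was at 0.764 and 3.52 CPM and Axl at 3.72 and 12.4. Stab1 was at 0.588 and 3.28 there and Mertk at 0.265 and 2.46. These levels were read as the background in each library.

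Mrc1 encodes the mannose receptor CD206, an endocytic lectin of resident macrophages. In the library labelled Runx3_fl it was at 15.1 CPM in Ly6c2+ C1qa- cells, 37.9 in C1qa+ Ly6c2+ cells and 105 in C1qa+ Ly6c2- cells (95% Poisson interval 88.4 to 123). In the library labelled Runx3 the same classes held 26.9, 102 and 265 (226 to 308). Flt3+ cells (3.81 and 7.55) and Csf3r+ cells (5.23 and 21.4) were lowest, so the gene had the same order of classes in both libraries. The intervals of the 3 Ly6c2 and C1qa classes were disjoint within each library. They take UMIs as independent, and in C1qa+ Ly6c2- cells the top 10 cells held 74.5% and 73.2% of the Mrc1 UMIs.

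Stab1 encodes stabilin-1, a clearance receptor that binds phosphatidylserine and modified lipoproteins. Its levels along the same classes were 5.17, 8.07 and 17.3 CPM (11.1 to 25.8 in the last) in the library labelled Runx3_fl. They were 13.2, 26.6 and 119.7 (94.3 to 149.9) in the library labelled Runx3, where the macrophage gate stood apart from every other class. In Csf3r+ cells it was at 8.71 and 13.2 and in Flt3+ cells at 0.847 and 1.51, and in the library labelled Runx3_fl the interval of the macrophage gate overlapped that of Csf3r+ cells.

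Msr1 encodes the class A scavenger receptor for acetylated lipoproteins and was high in the monocyte gate too. It was at 122 and 81.9 CPM in Ly6c2+ C1qa- cells, at 156 and 162 in C1qa+ Ly6c2+ cells and at 165 and 115 in C1qa+ Ly6c2- cells. Flt3+ cells held 4 UMIs in each library, that is 0.565 and 3.02 CPM, so the gene separated these cells from the monocyte and macrophage gates. Csf3r+ cells stood between, at 43.1 and 42.0.

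Cd36 encodes a fatty acid translocase that also takes up oxidised lipoproteins. It was at 22.0, 24.9 and 47.7 CPM along the monocyte to macrophage classes of the library labelled Runx3_fl, with 32.8 in Flt3+ and 24.0 in Csf3r+ cells. All neighbouring intervals in its order overlapped, but that of the macrophage gate (36.9 to 60.6) overlapped only that of Flt3+ cells (28.7 to 37.3). In the library labelled Runx3 it was at 13.8, 23.8 and 121 along the same classes, and at 12.8 and 11.5 in the other classes. There the macrophage gate stood apart from every other class.

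Mertk and Axl encode receptor kinases that bind phosphatidylserine through Gas6, and Mertk also through Pros1. Mertk was at 4.20, 12.98 and 12.3 CPM along the 3 classes of the library labelled Runx3_fl and at 12.3, 47.5 and 56.7 in the library labelled Runx3. In both libraries the step lay between Ly6c2+ C1qa- and C1qa+ Ly6c2+ cells, and the intervals of the C1qa+ classes overlapped. Axl was at 57.0, 129 and 141 in the library labelled Runx3_fl. In the library labelled Runx3 it was at 122, 158 and 216, with Flt3+ cells at 20.1 and 35.5 and Csf3r+ cells at 21.8 and 39.5. The C1qa+ classes overlapped in the former library and stood apart in the latter.

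Timd4 encodes TIM-4, a phosphatidylserine receptor that marks long-lived resident macrophages of several tissues. Here its peak lay outside the macrophage gate. Flt3+ cells held the highest level in both libraries, 44.4 (39.6 to 49.5) and 26.4 (18.4 to 36.8) CPM. The next class, Ly6c2+ C1qa- cells, was at 11.4 and 6.96, with an interval below that of Flt3+ cells in each library, and C1qa+ Ly6c2- cells held 15 and 3 UMIs. These were concentrated, since 3 cells and 1 cell of that gate had any.

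**Figure D1:**
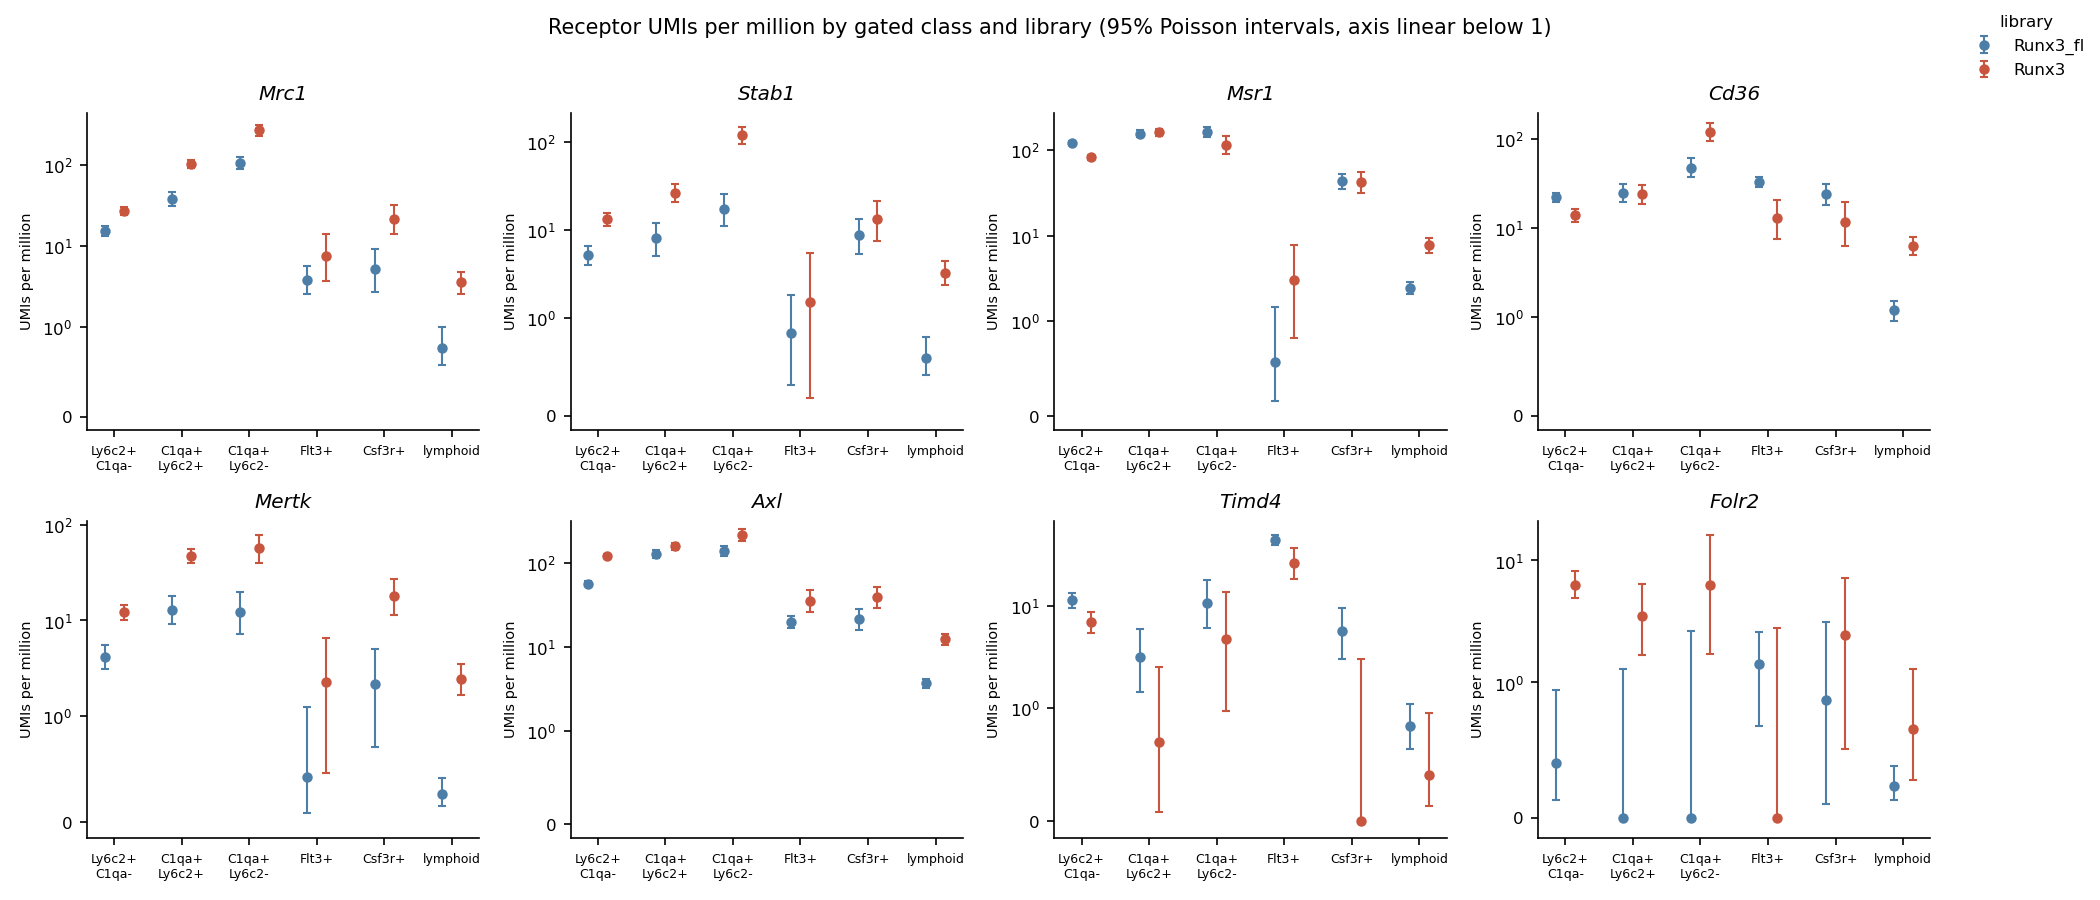
Levels of 8 receptors in CPM (vertical axis, logarithmic above 1 and linear below) in the 5 gated classes and in lymphoid cells as background, with blue points for the library labelled Runx3_fl, red points for the library labelled Runx3 and bars for 95% Poisson intervals. Mrc1 and Axl peak in C1qa+ Ly6c2- cells of both libraries (105 and 265, 141 and 216), whereas Timd4 peaks in Flt3+ cells (44.4 and 26.4).

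Along the monocyte to macrophage axis of the library labelled Runx3_fl, 5 of the 7 members with at least 20 UMIs were at least 2-fold higher in C1qa+ Ly6c2- than in Ly6c2+ C1qa- cells, beside 3.99% of the 11342 genes compared. All log2 ratios are of CPM plus 1, and their 95% exact intervals are of the counts without that addition. The ratios were 2.72 for Mrc1 (2.47 to 3.12), 1.57 for Stab1 (1.00 to 2.44), 1.35 for Mertk (0.66 to 2.36), 1.29 for Axl (1.07 to 1.54) and 1.08 for Cd36 (0.70 to 1.51). Msr1 (0.43) and Timd4 (-0.07) were not past the fold. The median was 1.29 over the members and -0.01 over all genes.

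In the library labelled Runx3, 4 of 8 members were past the same fold, beside 8.06% of 12080 genes. These were Mrc1 at 3.25 (3.01 to 3.58), Stab1 at 3.09 (2.75 to 3.60), Cd36 at 3.04 (2.71 to 3.55) and Mertk at 2.12 (1.63 to 2.75). Axl reached 0.82 (0.56 to 1.08), Msr1 0.49, Folr2 -0.01 and Timd4 -0.47. The median was 1.47 over the members and -0.06 over all genes. The ratio of Cd36 in the library labelled Runx3_fl was sensitive to the gates. It was -0.10 when gate genes were read in cells thinned to equal depth, with gate and lymphoid limits lowered to 1 UMI. It was 0.64 without the top cell of each class and past the fold in 9 of 17 alternative settings. Stab1 (0.85) and Mertk (0.65) in that library were under the fold with 10 CPM added in place of 1.

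Between the libraries, 3 of 6 members were at least 2-fold higher in C1qa+ Ly6c2+ cells of the library labelled Runx3, beside 15.2% of 10001 genes. These were Mrc1 with a log2 ratio of 1.41 (1.11 to 1.76), Stab1 with 1.60 (1.03 to 2.46) and Mertk with 1.80 (1.34 to 2.44). Axl (0.29), Msr1 (0.05) and Cd36 (-0.07) were close to the median of all genes, 0.24, and no member was 2-fold lower, beside 3.0% of genes. The member median was 0.85. All 3 ratios stayed past the fold in each of 17 alternative settings. The same 3 genes were also higher in the lymphoid cells of that library and over all its kept cells. Over all kept cells Mrc1 was at 9.14 and 37.8 CPM, Stab1 at 2.35 and 16.8 and Mertk at 2.28 and 17.15. Of the calls over all genes in this class, 83.5% were higher, and 65.0% after the median gene was set to 0.

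In C1qa+ Ly6c2- cells, 4 of 6 members were at least 2-fold higher in the library labelled Runx3, beside 14.2% of 7752 genes, and none was lower, beside 7.96%. Stab1 had a log2 ratio of 2.72 (2.11 to 3.52), Mertk 2.12 (1.34 to 3.13), Mrc1 1.33 (1.01 to 1.67) and Cd36 1.33 (0.85 to 1.84). Axl was at 0.61 (0.29 to 0.94) and Msr1 at -0.51 (-0.92 to -0.13). The member median was 1.33, beside 0.12 over all genes, whose calls were 64.0% higher, or 53.3% after centring. The ratio of Stab1 was past the fold in all 17 settings. With 1 UMI in place of 2 as the gate, Mertk fell to 0.04, Mrc1 to 0.43 and Cd36 to 0.69, and Msr1 was 2-fold lower at -1.02. Mrc1 was at 0.70 when every cell was weighted equally. The gate gene C1qa was itself at 1326 and 2483 CPM in this class, and the 12 gut macrophage markers summed to 4174 and 11215. Among these were C1qb (1183.5 and 2172.7) and C1qc (603 and 1320), which belong with C1qa, and Apoe (1220 and 4946). Median depths were 10364.5 and 3394 UMIs. The part of these in the receptor differences was not tested, except that the 4 ratios ran from 1.35 to 2.49 when the gates were read in cells thinned to equal depth.

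**Figure D2:**
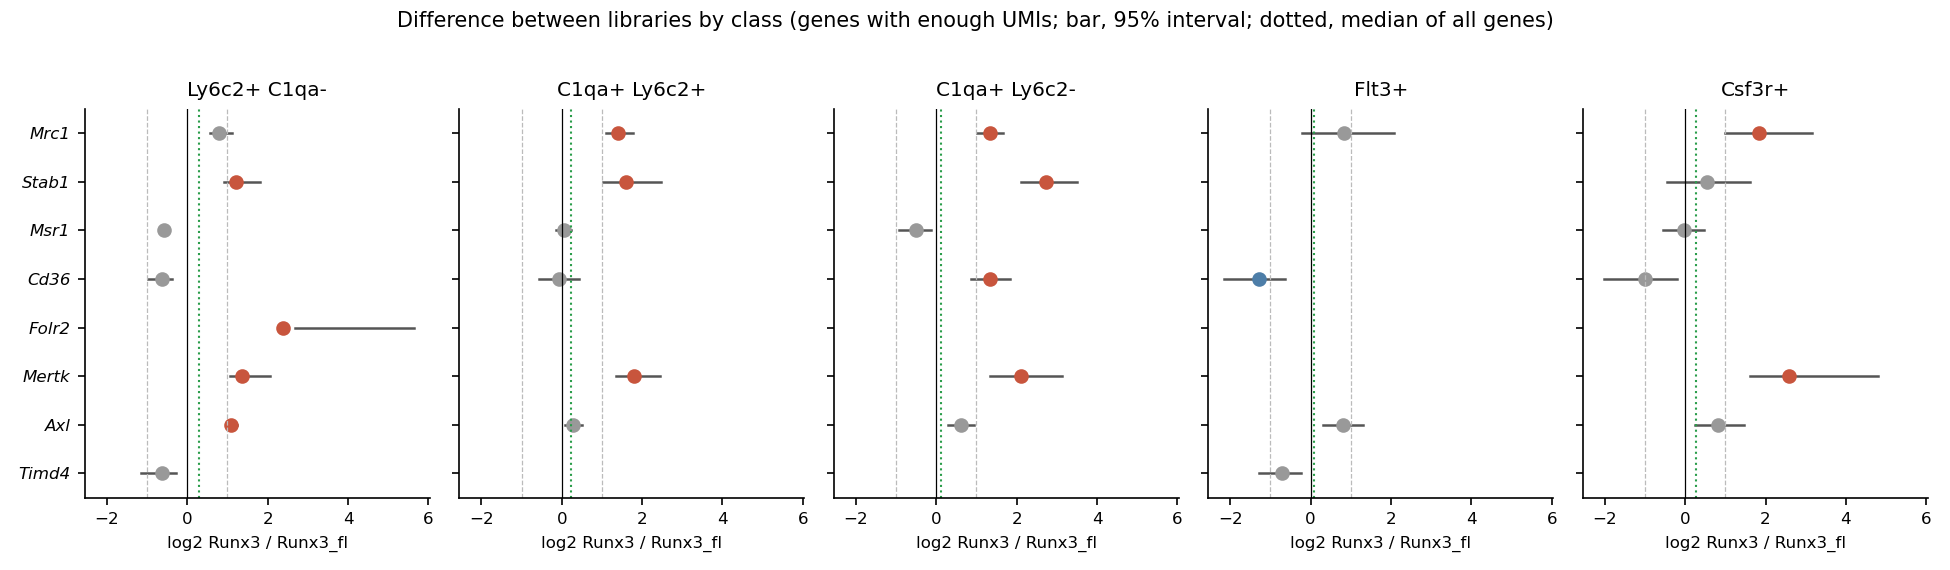
The log2 ratio of CPM plus 1, Runx3 over Runx3_fl (horizontal axis), for members with at least 20 UMIs in each of the 5 classes, with bars for 95% exact intervals of the counts without the addition, dashed lines at the 2-fold limits and a green dotted line at the median of all genes. Red points are at least 2-fold higher and blue points at least 2-fold lower in the library labelled Runx3. Mrc1, Stab1 and Mertk lie above 1 in both C1qa+ classes, and Cd36 changes side between classes.

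In Ly6c2+ C1qa- cells, 4 of 8 members were at least 2-fold higher in the library labelled Runx3, beside 13.2% of 13030 genes, and none was lower, beside 1.70%. These were Folr2 (2.39), Mertk (1.36, 1.07 to 2.05), Stab1 (1.205, 0.91 to 1.81) and Axl (1.08, 0.96 to 1.23), with Mrc1 at 0.80 (0.56 to 1.11). None of the 4 was past the fold with 10 CPM added in place of 1 (0.61 to 0.98), Mertk was not with cells of 1 lymphoid UMI excluded (0.97), Stab1 was not with the lymphoid level subtracted (0.97), and Axl was not with every cell weighted equally (0.99). Mrc1 passed it with gates at 1 UMI (1.49), without the lymphoid exclusion (1.96) and with gate genes read in thinned cells (1.25). Cd36 (-0.64, -0.98 to -0.37), Msr1 (-0.57, -0.70 to -0.45) and Timd4 (-0.64, -1.15 to -0.28) were lower, but all 3 were higher when cells with lymphoid UMIs were not excluded (0.59, 0.67 and 0.20), and Cd36 also with gates at 1 UMI (0.34). The member median was 0.94 and that of all genes 0.28, and the calls over all genes were 88.6% higher, or 66.3% after centring, when Stab1 and Axl were no longer past the fold. The Folr2 ratio rested on 1 cell, which held 46 of its 63 UMIs. This class also differed in the neutrophil list, which summed to 494 and 6516 CPM, and in haemoglobin genes (0.484 and 227 CPM). Without cells of 10 or more S100a8 UMIs, 9 and 45 in number, the same count of 4 members was obtained.

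Among Flt3+ cells no member of 4 was at least 2-fold higher in the library labelled Runx3, beside 8.07% of 10643 genes, and Cd36 was lower (-1.29, -2.16 to -0.64), beside 4.46%. Cd36 stayed past the fold in 12 of 17 alternative settings and was weakest, at -0.23, with every cell weighted equally. Timd4 was at -0.72 (-1.29 to -0.24), Axl at 0.79 (0.32 to 1.31) and Mrc1 at 0.83 (-0.22 to 2.08). The member median was 0.03, beside 0.09 over all genes. In Csf3r+ cells 2 of 6 members were at least 2-fold higher, beside 14.3% of 8478 genes, and none was 2-fold lower, beside 3.04%. They were Mertk (2.59, 1.62 to 4.81) and Mrc1 (1.85, 0.99 to 3.15), with 5 and 22 UMIs of Mertk, of which 4 of the 5 lay in 1 cell. The Mertk ratio was past the fold in all 14 settings that gave it a value. Mrc1 was under the fold with gates at 1 UMI (0.98) and with gate genes read in thinned cells (0.89). Cd36 was at -0.996 (-2.02 to -0.19), a value that rested on 1 cell with 35 of its 55 UMIs in the library labelled Runx3_fl, and without the top cell of each library it was -0.21. The member median was 0.69, beside 0.26 over all genes. Over all genes 82.5% of the calls were higher, or 59.5% after centring.

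Mrc1, Stab1 and Mertk were thus the members that differed in both C1qa+ classes, and the sequences before their start sites are shown beside that of Axl, which was highest in the same cells but differed less. They are RefSeq promoter sequences of GRCm38.p6, 5′ to 3′ on the strand of the gene, up to the start site and without any base inside the GENCODE gene. Capitals mark matches, on either strand, to the letters GAGGAA, which the macrophage factor PU.1 can bind, TGCTGA, a core of MAF sites, TGTGGT, a core of RUNX sites, or TGANTCA, bound by AP-1.
Mrc1 (chr2:14229164-14229391, plus strand): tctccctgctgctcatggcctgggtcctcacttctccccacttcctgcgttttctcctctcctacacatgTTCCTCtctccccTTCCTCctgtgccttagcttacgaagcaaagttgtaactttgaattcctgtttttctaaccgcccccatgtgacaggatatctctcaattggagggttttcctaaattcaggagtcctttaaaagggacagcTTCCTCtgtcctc
Stab1 (chr14:31168642-31168891, minus strand): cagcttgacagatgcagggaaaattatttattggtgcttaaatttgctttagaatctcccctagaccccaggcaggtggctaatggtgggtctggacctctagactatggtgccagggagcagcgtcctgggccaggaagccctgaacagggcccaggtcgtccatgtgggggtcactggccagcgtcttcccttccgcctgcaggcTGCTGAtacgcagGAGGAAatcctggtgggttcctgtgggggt
Mertk (chr2:128698665-128698914, plus strand): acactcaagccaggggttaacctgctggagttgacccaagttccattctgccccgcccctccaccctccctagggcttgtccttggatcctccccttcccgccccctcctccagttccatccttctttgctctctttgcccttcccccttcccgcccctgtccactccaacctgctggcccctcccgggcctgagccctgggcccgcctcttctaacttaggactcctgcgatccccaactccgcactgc
Axl (chr7:25788734-25788983, minus strand): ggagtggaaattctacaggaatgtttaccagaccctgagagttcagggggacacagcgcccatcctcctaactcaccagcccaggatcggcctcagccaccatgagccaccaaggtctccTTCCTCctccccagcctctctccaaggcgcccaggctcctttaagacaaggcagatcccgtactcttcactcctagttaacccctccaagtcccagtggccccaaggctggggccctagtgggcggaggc

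The Mrc1 sequence held 3 matches to GAGGAA, beginning at -180, -167 and -35 from the start site and all on the opposite strand. Stab1 held 1 such match at -30 and TGCTGA at -43, Axl held GAGGAA at -130, and Mertk held none of the 4. Over 10 windows of 250 bases before the start sites of 9 members, Folr2 with 2 start sites, 4 held GAGGAA, 5 TGCTGA, 1 TGTGGT and 1 TGANTCA. Of 32817 promoters of the same length, 23.3%, 16.1%, 14.04% and 6.75% did. A match is a run of letters and not a bound site. In GENCODE M21 on GRCm38, Mrc1 spans chr2:14229392-14332057 with Mir511 in an intron, Stab1 chr14:31139013-31168641, Mertk chr2:128698956-128802894 and Axl chr7:25757273-25788705. Genes on the opposite strand overlap exons of Stab1 (Nt5dc2), Mertk (Gm14011) and Folr2 (Gm10602), and their reads are separate only where the counting used strand.

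The share of cells with a UMI was compared with the depth of all cells reduced at random to 2000 UMIs, leaving 118 and 66 C1qa+ Ly6c2- cells and dropping 18 and 41 shallower ones. Mrc1 was found in 12.7% (7.29 to 20.1) and 25.8% (15.8 to 38.0) of them, against 0.111% and 0.205% of lymphoid cells. Stab1 was found in 4.24% (1.39 to 9.61) and 18.2% (9.76 to 29.6), and Cd36 in 3.39% (0.931 to 8.45) and 16.7% (8.62 to 27.9). The intervals of Stab1 and of Cd36 were disjoint between the libraries, by a narrow margin, and those of Mrc1 overlapped. For Mertk as well (4.24% and 7.58%), Axl (22.9% and 28.8%) and Msr1 (28.0% and 16.7%) the intervals overlapped. In lymphoid cells these 5 genes were found in 0.0922% to 1.71% of cells, and all 6 shares in the macrophage gate stood above the lymphoid interval in both libraries. Unthinned shares, at unequal depth, were 22.8% and 33.6% for Mrc1 and 11.8% and 30.8% for Stab1. For Cd36 they were 16.2% (10.4 to 23.5) and 20.6% (13.4 to 29.5), intervals that overlapped. The thinned shares of Cd36 rested on 4 and 11 cells, and each cell was thinned only once.

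In the larger C1qa+ Ly6c2+ class, with 202 and 275 thinned cells, Mrc1 was found in 6.44% and 10.5% of cells, Stab1 in 2.48% and 5.82%, and Mertk in 2.97% and 8.0%. All 3 pairs of intervals overlapped at this depth, although the Poisson intervals of the summed UMIs of the whole class were disjoint. Those intervals take UMIs as independent, whereas the UMIs were concentrated in few cells. The top 10 cells held 74.1% and 60.3% of them for Mrc1, 56.5% and 35.5% for Stab1 and 48.65% and 39.7% for Mertk. Axl (25.2% and 26.9%) and Msr1 (22.8% and 25.1%) also had overlapping intervals. In Ly6c2+ C1qa- cells the share for Axl was 8.48% (6.81 to 10.4) and 16.8% (14.6 to 19.1), and that for Msr1 17.6% (15.2 to 20.1) and 13.1% (11.2 to 15.2).

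**Figure D3:**
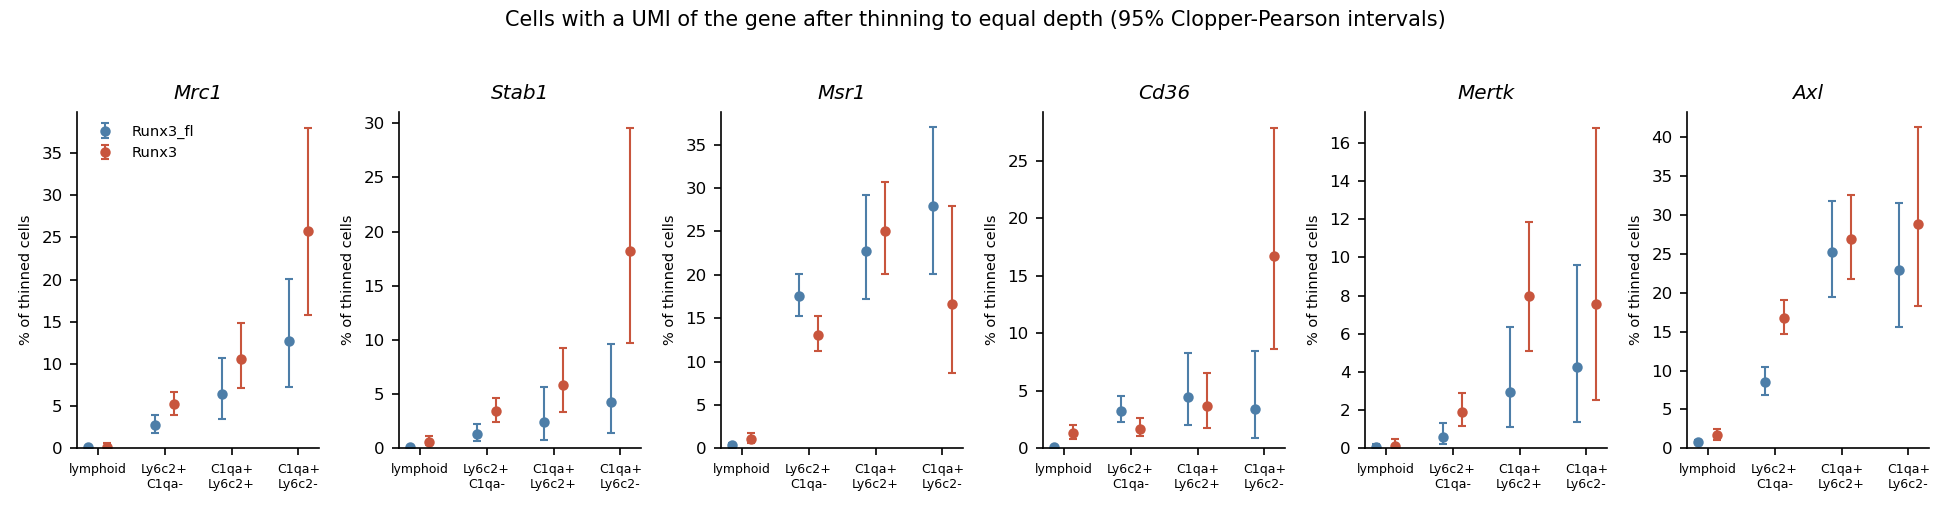
Percentage of cells with at least 1 UMI of the gene after thinning every cell to 2000 UMIs (vertical axis, from 0) for 6 receptors in lymphoid cells and in the 3 Ly6c2 and C1qa classes, with bars for 95% Clopper-Pearson intervals. The Stab1 share in C1qa+ Ly6c2- cells is 4.24% and 18.2%, and Axl is above 22% in both C1qa+ classes of both libraries.

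For every pair of receptors whose shares multiplied to 3 cells or more, the number of cells with both lay within counting error of that product. Below that limit 1 pair lay outside it: Mrc1 and Mertk were both found in 3 C1qa+ Ly6c2+ cells of the library labelled Runx3_fl (0.619 to 8.77) where the product gave 0.386. Among 275 thinned C1qa+ Ly6c2+ cells of the library labelled Runx3, Msr1 and Axl were both found in 19 cells (interval 11.4 to 29.7) where the product gave 18.6. Msr1 and Mertk were both found in 9 cells (4.12 to 17.1) against 5.52, and Mrc1 and Axl in 8 against 7.80. Among 202 cells of the library labelled Runx3_fl, Msr1 and Axl were both found in 13 against 11.6. In the macrophage gates the product was under 8 cells for every pair.

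Cd36 among Flt3+ cells was a gene of the Xcr1+ or Clec9a+ cells, the cross-presenting dendritic cells. These had at least 2 summed UMIs of Xcr1 and Clec9a and were 147 of 418 and 11 of 99 Flt3+ cells. In them Cd36 was at 62.8 (54.7 to 71.7) and 60.4 (33.0 to 101) CPM, and in the other Flt3+ cells at 3.88 and 2.74. Within each kind the intervals of the libraries overlapped. Timd4 had another pattern. It was at 66.8 and 32.05 in the other Flt3+ cells, and at 21.02 and 0 (upper bound 15.9) in the Xcr1+ or Clec9a+ cells. Ccr7+ Fscn1+ cells, the migratory state, held it at 40.2 and 12.4. These splits were chosen after the data were seen.

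Among cells of the Ly6c2 and C1qa gates, 130 and 22 were Nos2+. These had at least 2 UMIs of Nos2, the inducible nitric oxide synthase of inflammatory macrophages. Msr1 was at 188 in these cells of both libraries and at 124 and 98.4 in the other cells of these gates. Axl was at 104 and 286 against 72.8 and 131. Mrc1 was at 21.2 (15.1 to 28.8) and 20.2 (7.40 to 43.9) in Nos2+ cells against 27.15 (24.55 to 29.95) and 55.0 (51.0 to 59.1), intervals that overlapped in the library labelled Runx3_fl. No UMI of Timd4, Folr2, Cd163 or Marco was seen in them. Csf1r divided the Ly6c2+ C1qa- cells further. The 675 and 779 cells with a Csf1r UMI held Msr1 at 155 and 106, against 33.9 and 36.4 in those without, and Cd36 at 23.5 and 17.9 against 18.15 and 6.12. Requiring Csf1r left the member counts of the 3 classes as they were.

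Folr2, Cd163 and Marco were near the limit of detection. Folr2, a folate receptor of perivascular macrophages, had 54 UMIs in 40 kept cells and 247 in 107. Cd163, the haemoglobin and haptoglobin scavenger receptor, had 12 and 34 UMIs, none of them in either C1qa+ class of the library labelled Runx3_fl. Marco, a scavenger receptor of bacteria-binding macrophages, had no UMI in the library labelled Runx3_fl, where a count of 0 allows up to 0.0252% of kept cells to hold a UMI at this depth and sets no limit on cells that express the gene, and 15 UMIs in 7 cells of the library labelled Runx3. Lyve1, Folr2, Timd4 and Cd163 were read as markers of perivascular or of self-maintaining macrophages. Of these genes, 4 and 6 cells held UMIs of 2 or more, and none held Lyve1 with Folr2.

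Of the TAM receptors, Tyro3 was at or near 0: it had 0 to 1 UMI in each of the 5 classes. The ligand Gas6 was highest in C1qa+ Ly6c2- cells, where it had 5 and 27 UMIs, 3.61 (1.17 to 8.43) and 42.5 (28.0 to 61.9) CPM, and a log2 ratio of 3.24 (2.16 to 5.29). In the other 4 classes it was at 0.141 to 2.80. Pros1 was spread more widely, at 10.8 and 13.5 in Ly6c2+ C1qa- cells and 7.22 and 25.2 in C1qa+ Ly6c2- cells (log2 ratio 1.67, 0.57 to 3.10). The macrophage gate of the library labelled Runx3 held the highest level of Mertk, Axl, Gas6 and Pros1 among the 5 classes of both libraries, although for Mertk and Pros1 its interval overlapped that of at least 1 other class.

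**Figure D4:**
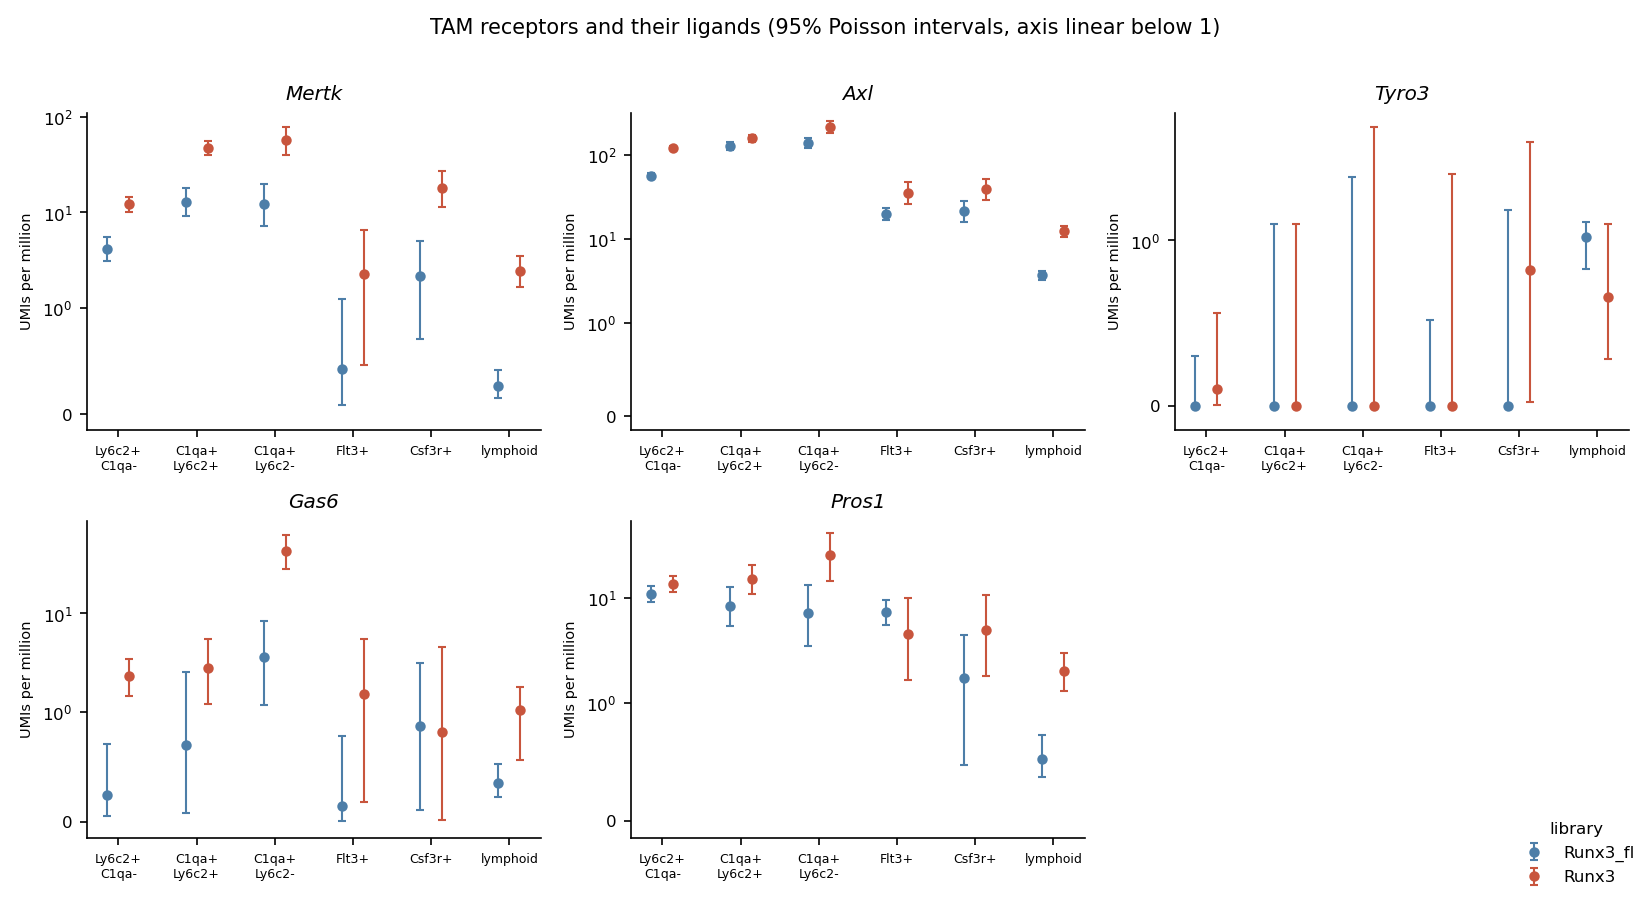
Levels of the TAM receptors Mertk, Axl and Tyro3 and the ligands Gas6 and Pros1 in CPM (vertical axis, logarithmic above 1 and linear below) by class, with blue points for the library labelled Runx3_fl, red points for the library labelled Runx3 and bars for 95% Poisson intervals. Gas6 reaches 42.5 in C1qa+ Ly6c2- cells of the library labelled Runx3 and stays at or below 3.61 elsewhere, and Tyro3 is at or near 0 in all 5 classes.

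Other genes of the pathway were read by list in C1qa+ Ly6c2- cells, beside the background of 14.2% higher and 7.96% lower. Of 10 bridging molecules and opsonins with enough UMIs, 4 were at least 2-fold higher in the library labelled Runx3 and 1 was lower, with a median of 0.76. Besides Gas6 and Pros1 the higher genes were C1qc (603 and 1320 CPM), in cells gated on its partner C1qa, and Cd93 (48.4 and 121). The lower gene was the complement component C3 (186 and 81.9). Of 32 other scavenger and efferocytosis receptors 31 matched a symbol and 15 had enough UMIs, of which 4 were higher and 2 lower, with a median of 0.56. Itgb5, the integrin chain that binds Mfge8 on dying cells, was at 50.5 and 165, the immunoglobulin receptor Fcgr1 at 101 and 247, the lipoprotein receptor Lrp1 at 83.0 and 202, and Cd300lf at 49.8 and 102. Itgav, the partner of Itgb5, went the other way, at 586 and 263.

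The steps after recognition were read from their own lists, and no difference between lists was tested. Of 12 genes of the engulfment machinery 1 was higher and none was lower (median 0.13), and of 22 genes of phagosome digestion and lipid efflux 3 were higher and none lower (median 0.34). Apoe, which carries exported cholesterol, was at 1220 and 4946 CPM, a log2 ratio of 2.02 (1.93 to 2.11), and Atg7 was at 29.6 and 66.2. None of 6 sheddases and brakes was past the fold (median 0.23). Of 10 transcription factors of resident macrophages 3 were higher (median 0.55): Hes1 at 27.4 and 336, Maf at 137 and 403, and Nr4a1 at 110.5 and 263. None was 2-fold lower, but Zeb2, at 5114 and 2641, had a log2 ratio of -0.95 (-1.03 to -0.88). Irf8, at 276 and 194, had one of -0.51 (-0.81 to -0.21). In C1qa+ Ly6c2+ cells the transcription factors had 5 of 11 higher with a median of 0.82, beside 15.2%, while the bridging molecules had none of 10 with a median of 0.34.

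The genes whose levels followed a member most closely over the 10 sums of class and library, among 7797 genes, differed between receptors. Those sums share libraries and cells, so the values of Pearson r are descriptions. Mrc1 was most like Ms4a7 (0.99), Pltp (0.99) and Ccl12 (0.98), Stab1 like Tspan32 (0.98), Ptgs1 (0.98) and P2ry6 (0.98), and Mertk like Rnase4 (0.97), Usf2 (0.97) and Itgb5 (0.96). Msr1 was most like Rgl1, Tgfbi and Gas7 (all 0.98), and Axl like Lgals3bp, P4ha1 and Dock1 (all 0.98). Timd4 was most like Dctpp1 (0.98), Smc1a (0.97) and Specc1 (0.97), and the nearest to Cd36 was Atp6v1d (0.90). No gene was among the 3 nearest of more than 1 member.

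**Figure D5:**
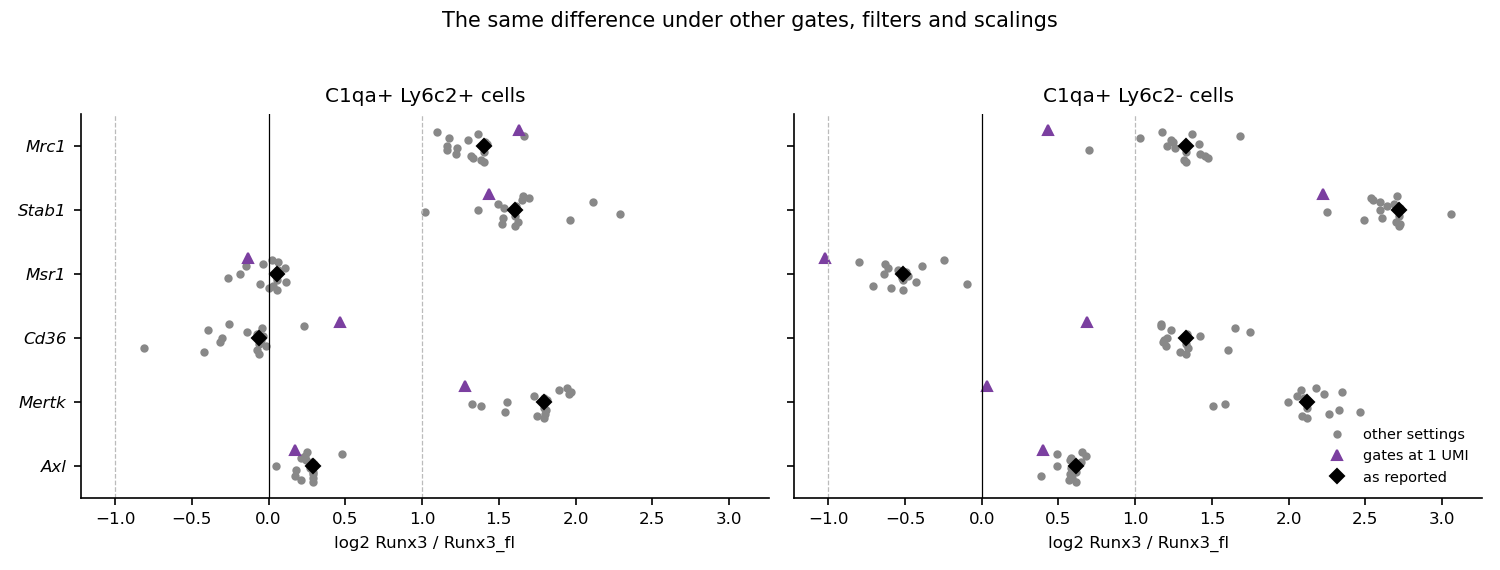
The log2 ratio Runx3 over Runx3_fl (horizontal axis) of 6 receptors in C1qa+ Ly6c2+ and C1qa+ Ly6c2- cells as reported (black diamonds) and under 17 other gates, filters and scalings (grey points, with purple triangles for gates at 1 UMI). Mrc1, Stab1 and Mertk stay above the dashed 2-fold line at 1 in C1qa+ Ly6c2+ cells, whereas in C1qa+ Ly6c2- cells Mertk drops to 0.04 with gates at 1 UMI.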

How the data were processed

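Per the file headers, the deposited counts are whole-number UMI counts per gene and cell that the authors made with Cell Ranger 7.1.0, 1 matrix per library. The submitters' processing notes name Seurat 4 and mm10, and strand settings are not given in the sources used here. The matrices held 12968 and 8953 cells and 146204416 and 75478164 UMIs, and 37 barcodes occurred in both. Cells with 200 to 6000 genes and at most 15% mitochondrial UMIs were kept. The upper gene limit was the only step against doublets in the reported values, and removal of simulated doublets was an alternative. Cells were classed by at least 2 UMIs of Ly6c2, C1qa, Flt3 or Csf3r, cells positive for several gates and cells with 3 or more lymphoid UMIs being left out.

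Counts were summed per class and library and scaled to CPM. Log2 ratios used 1 CPM added to each value and genes with at least 20 UMIs over both groups, and a 2-fold difference was the limit for counting genes. Intervals are 95% exact Poisson intervals for levels, exact conditional binomial intervals for ratios and Clopper-Pearson intervals for shares, and all cover counting error only. A count of 0 was read as a limit of 3 counts. With 1 library per group no test was made and no p-value is given. The ratio step was run on simulated class sums with known folds. These were drawn with independent UMIs, as the intervals assume, so the run says nothing about UMIs concentrated in few cells. The scripts ran under Python 3.11.15 with pandas 2.3.3, scipy 1.17.1, numpy 2.4.6 and, for plots, matplotlib 3.10.9. Genes were placed with GENCODE M21 on GRCm38, and promoter sequences came from RefSeq on GRCm38.p6, which held 9 of the 10 genes.

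The genes named were the 10 receptors, the genes of the pathway lists at least 2-fold apart in C1qa+ Ly6c2- cells with disjoint intervals and at 20 CPM or more in 1 library, up to 4 per list and direction, and the 3 genes most like each receptor by Pearson r of log2 CPM with 10 added. Zeb2 and Irf8 were named in addition, as transcription factors of the list that were lower without reaching the fold. The receptors and lists were chosen with earlier results of these data known. There were 17 alternatives, 5 of them chosen after seeing the data, as were the splits of classes by Nos2, Csf1r, Xcr1 or Clec9a, and Ccr7 with Fscn1.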

Additional observations from a re-analysis of the deposited data

Results flagged for a closer look

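Cd36 was the receptor whose difference between the libraries had opposite directions in different classes. Its log2 ratio, Runx3 over Runx3_fl, was 1.33 in C1qa+ Ly6c2- cells, -0.64 in Ly6c2+ C1qa- cells, -1.29 in Flt3+ cells and -0.996 in Csf3r+ cells. The difference between these ratios was not tested, since each group had 1 library. In Flt3+ cells, 147 of 418 and 11 of 99 cells were Xcr1+ or Clec9a+, and Cd36 in them was at 62.8 and 60.4 CPM. The Flt3+ ratio was past the fold in 12 of 17 alternatives and was -0.23 with every cell weighted equally. The Csf3r+ ratio rested on 1 cell of the library labelled Runx3_fl, with 35 of 55 UMIs, and was -0.21 without the top cell of each library. In Csf3r+ cells the ratio was positive in 2 of the alternatives, at 1.60 with gates at 3 UMIs and 1.34 with gate genes read in thinned cells, and in Ly6c2+ C1qa- cells it was 0.59 without the lymphoid exclusion.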

How the results depend on the processing

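The number of receptors at least 2-fold apart between the libraries (4, 3, 4, 1 and 2 of them in Ly6c2+ C1qa-, C1qa+ Ly6c2+, C1qa+ Ly6c2-, Flt3+ and Csf3r+ cells) moved with several choices. With gates at 1 UMI it was 5 in C1qa+ Ly6c2+, 3 in Flt3+ and 4 in Csf3r+ cells, and with gates at 3 UMIs it was 2 in Flt3+ cells. Without the lymphoid exclusion it was 2 in Flt3+ and 4 in Csf3r+ cells, and with cells of 1 lymphoid UMI excluded it was 2 in Ly6c2+ C1qa- cells. It was 2 in Ly6c2+ C1qa- cells with the median gene set to 0. With 10 CPM added it was 0 in Ly6c2+ C1qa- and 0 in Flt3+ cells, and 2 in place of 5 receptors were higher in the macrophage than in the monocyte gate of the library labelled Runx3_fl. With every cell weighted equally, and with gate genes read in thinned cells, it was 5 in Csf3r+ cells. With no minimum beyond 1 UMI it was 7 in C1qa+ Ly6c2+, 7 in C1qa+ Ly6c2- and 5 in Flt3+ cells, since more genes entered. Without the top cell of each gene it was 2 in Flt3+ and 1 in Csf3r+ cells, and Folr2 in Ly6c2+ C1qa- cells was left with too few UMIs for a value. With gates at 1 UMI the count in C1qa+ Ly6c2- cells was 3, but not of the same genes. Mrc1 (0.43), Cd36 (0.69) and Mertk (0.04) were then under the fold, and Msr1 (-1.02) was past it as lower. Other counts within a factor of 1.5 of the reported one are not listed. In the library labelled Runx3_fl, Cd36 in the macrophage over the monocyte gate turned to -0.10 with gate genes read in thinned cells. Apart from the minimum and the top cells, the cause was not tested.

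No paired analysis was possible because each group had 1 library and no comparison came from a test. The macrophage gate held 136 and 107 cells, so receptors with few UMIs there, such as Mertk with 17 and 36, have wide counting intervals.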

Other observations

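Cells outside the classes held many receptor UMIs. Cells positive for several gates numbered 600 and 1136. They held 17.2% and 23.6% of all Mrc1 UMIs, 10.9% and 36.2% of Stab1 and 17.4% and 32.5% of Mertk. Cells fitting no class or other group numbered 773 and 1132. For the same genes they held 21.4% and 36.3%, 18.75% and 24.57%, and 17.4% and 27.05%. The macrophage gate held 11.6% and 6.785% of the Mrc1 UMIs. Many cells were positive for no gate, 2811 and 2027 of those kept, and they held receptor UMIs as well. In them Timd4 was at 27.8 and 12.7 CPM, 40.7% and 30.03% of all its UMIs. Of these cells 236 and 141 had at least 2 Csf1r UMIs. They held Cd36 at 52.4 and 76.5 CPM, Mrc1 at 31.3 and 70.2 and Msr1 at 99.8 and 46.8, and Timd4 at 17.3 and 0.90. Among all cells positive for no gate, whether or not they had Csf1r, 64 and 24 were Ccr7+ Fscn1+. These held Axl at 48.5 and 127.6 CPM and Timd4 at 59.2 and 23.9. The median depth of cells positive for no gate was 4885 and 1743 UMIs. These splits were chosen after the data were seen.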
